A study of Mus musculus with 10 samples.

Results

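Mitochondrial ribosomal proteins are the nuclear-encoded proteins of the ribosome inside mitochondria, and their transcripts were examined in brown fat whose adipocytes were targeted for loss of cardiolipin synthase. The members were the genes of the expression table whose symbol begins with Mrpl or Mrps followed by a digit, which gave 77 of the 15075 genes. All 77 passed the filter on low values described below. By their place in the ribosome, 50 belonged to the large subunit and 26 to the small subunit. The large subunit here held all genes named Mrpl together with Mrps30 and Mrps18a, whose proteins sit in the large subunit despite their names. Mrps36 was kept apart, because its protein is known as a part of the 2-oxoglutarate dehydrogenase complex rather than of the ribosome.

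Mitochondria carry their own small genome, which encodes the ribosomal RNAs of this ribosome and a handful of core subunits of the respiratory chain and ATP synthase. Every protein of the ribosome is encoded in the nucleus, made in the cytosol and imported. Some have counterparts in bacterial ribosomes and others are found only in mitochondria. The small subunit reads the messenger RNA, and the large subunit joins the amino acids and feeds the growing chain into the inner membrane. Brown fat, which burns fuel for heat, is packed with mitochondria and depends on this machinery for its respiratory chain.

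Interscapular brown fat (iBAT) was taken from 20-week-old C57BL/6 mice kept at room temperature, with 5 Control and 5 AdCKO animals and 1 library per animal. Both groups carried Crls1 alleles with loxP sites around exon 4, and AdCKO mice also carried Adipoq-Cre. This Cre is active in the adipocytes of white as well as brown fat, so the deletion was not limited to brown fat. Control mice had no Cre and were labelled wild type. Values are normalized exon reads per kilobase of counted exon, as the authors scaled them, and the number of reads behind each library is unknown. In the comparison of AdCKO with Control, each value was raised by 1 and put on the log2 scale, and limma was run on the 11244 genes whose mean reached 10 in at least 1 of the groups. Genes were called lower or higher at a Benjamini-Hochberg adjusted p below 0.01, and fold changes are log2 values of AdCKO minus Control.

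Crls1, the targeted gene, was lower in every AdCKO library, at 193 to 249 normalized reads per kb against 813 to 1291 in Control. The summed level of 10 adipocyte markers was 215699 to 245601 normalized reads per kb in Control and 134681 to 159258 in AdCKO libraries. Most of that sum was Fabp4 (Control mean 147241), which was not called. Of the 10, 7 were called lower (28.0% of all tested genes) and 1, Retn, higher (25.6%). With quantile normalization 2 were lower (31.2% of all tested genes) and 1 higher (22.0%). With every library scaled to the same total, 4 were lower (9.77%) and 2 higher (60.6%). The 10 macrophage markers summed to between 503 and 1407 in Control and between 8615 and 12993 in AdCKO. All 10 were called higher (25.6% of all tested genes). The summed level of 10 skeletal muscle markers was 117 to 149 in Control, and in AdCKO it was 7034, 28155, 161, 10452 and 149 in libraries 1 to 5, with 1 of the 10, Acta1, called. AdCKO libraries 1, 2 and 4 thus stood apart from the other AdCKO libraries in muscle transcripts. No marker of these lists was at 0. Of the endothelial markers 1 of 5 was called higher (25.6% of all tested genes). None of the 3 tested T and B cell markers was called (limma, 0 also at an unadjusted p under 0.05). In whole tissue, fewer cells of a type and less RNA per cell cannot be told apart, and the part of these marker changes in the results below was not tested.

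The start regions of 6 members are shown to give the letters around the starts of members that the results turn on, with the motifs that the share counts below rest on. RefSeq start regions (GRCm38.p6) were on hand for 68 of the 77 members, and the windows searched ran from 250 bases before to 50 bases after the transcription start. The stretches printed end 30 bases after the start, read 5′ to 3′ on the gene's own strand, and reach at most 30 bases into a gene that starts on the other strand. Capitals mark a motif of NRF1 (GCGCATGCG), of ETS factors such as GABPA (CCGGAAGT) or of YY1 (AAGATGGCG), read on either strand. NRF1 and GABPA are known regulators of nuclear genes for mitochondria. Mrpl50 and Mrps15 are the members of the large and small subunit with the smallest p, Mrps6 is the member that was called higher, Mrpl39 and Mrps27 carry motifs and fell strongly, and Mrps11 begins 42 bases from Mrpl46 on the opposite strand.
Mrpl50 (chr4:49521054-49521205, minus strand): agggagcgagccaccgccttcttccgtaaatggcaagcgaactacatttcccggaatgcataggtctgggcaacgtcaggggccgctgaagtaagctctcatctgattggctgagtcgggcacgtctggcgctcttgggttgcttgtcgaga
Mrps15 (chr4:126046708-126046957, plus strand): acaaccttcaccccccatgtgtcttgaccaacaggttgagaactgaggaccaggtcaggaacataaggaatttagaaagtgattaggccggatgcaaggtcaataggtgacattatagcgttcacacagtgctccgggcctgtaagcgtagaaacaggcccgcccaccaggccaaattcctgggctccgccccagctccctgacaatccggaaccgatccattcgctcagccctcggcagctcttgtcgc
Mrps6 (chr16:92058116-92058365, plus strand): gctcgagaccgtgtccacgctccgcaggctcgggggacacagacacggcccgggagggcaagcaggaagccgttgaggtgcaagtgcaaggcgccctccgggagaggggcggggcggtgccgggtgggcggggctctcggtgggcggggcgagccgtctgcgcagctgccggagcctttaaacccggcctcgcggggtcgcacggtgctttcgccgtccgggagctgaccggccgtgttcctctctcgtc
Mrpl39 (chr16:84735215-84735464, minus strand): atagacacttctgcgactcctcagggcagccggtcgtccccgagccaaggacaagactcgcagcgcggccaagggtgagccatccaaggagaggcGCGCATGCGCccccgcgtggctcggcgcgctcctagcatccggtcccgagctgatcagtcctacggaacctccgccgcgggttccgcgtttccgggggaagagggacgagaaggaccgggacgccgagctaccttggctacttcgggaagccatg
Mrps27 (chr13:99344649-99344815, plus strand): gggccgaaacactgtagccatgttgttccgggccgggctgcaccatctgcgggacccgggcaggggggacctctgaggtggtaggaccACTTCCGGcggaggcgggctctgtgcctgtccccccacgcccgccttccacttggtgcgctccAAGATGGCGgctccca
Mrps11 (chr7:78783060-78783160, plus strand): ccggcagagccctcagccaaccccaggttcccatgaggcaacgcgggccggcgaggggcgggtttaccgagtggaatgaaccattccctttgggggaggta

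The NRF1 motif of Mrpl39 reads as a match on both strands and starts 125 bases before the transcription start. In Mrps27 the ETS motif starts 49 bases before it, and the YY1 motif starts at base 15 of the transcript. The window of Mrps11 holds a YY1 motif that lies upstream of its printed stretch. The windows of Mrpl50, Mrps15 and Mrps6 hold none of these letters, which says nothing about whether the factors bind there.

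Over all members, transcripts of the mitochondrial ribosome were mostly lower in AdCKO iBAT. Of the 77 members, 61 were lower, against 28.0% of all tested genes, and 1 was higher, against 25.6% of all tested genes, while 15 were not called. The median log2 fold change was -0.54, which is a level of 68.6% of Control, against -0.01 for all tested genes. When every library was instead scaled to the same total of normalized reads, 22 members were lower and 8 were higher with a median of -0.06, while the median of all genes moved up by 0.47. All 22 were among the 61, and relative to all genes the median of the members under that scaling was -0.52. That scaling shifts all genes nearly alike, so a value relative to all genes stays about the same by construction and is no separate check. In 57 members every AdCKO library lay below every Control library (26.4% of all tested genes), and in 1 every AdCKO library lay above (24.5%).

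The size of the fall varied widely between members. It exceeded 1 on the log2 scale in 6 members, lay between 0.5 and 1 in 35 and was below 0.5 in 34, while 2 members had positive fold changes. Members with higher Control levels per kb tended to have more negative fold changes (Spearman's rho -0.47 and Pearson's r -0.46 across the 77 genes, which share the same libraries and are not independent replicates). Control values enter both quantities, which by itself draws this correlation toward negative values. The order of the levels was similar in the groups, with a Spearman's rho of 0.92 between Control and AdCKO levels. Counted length had a rho of -0.12 with the fold change.

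**Figure D1:**
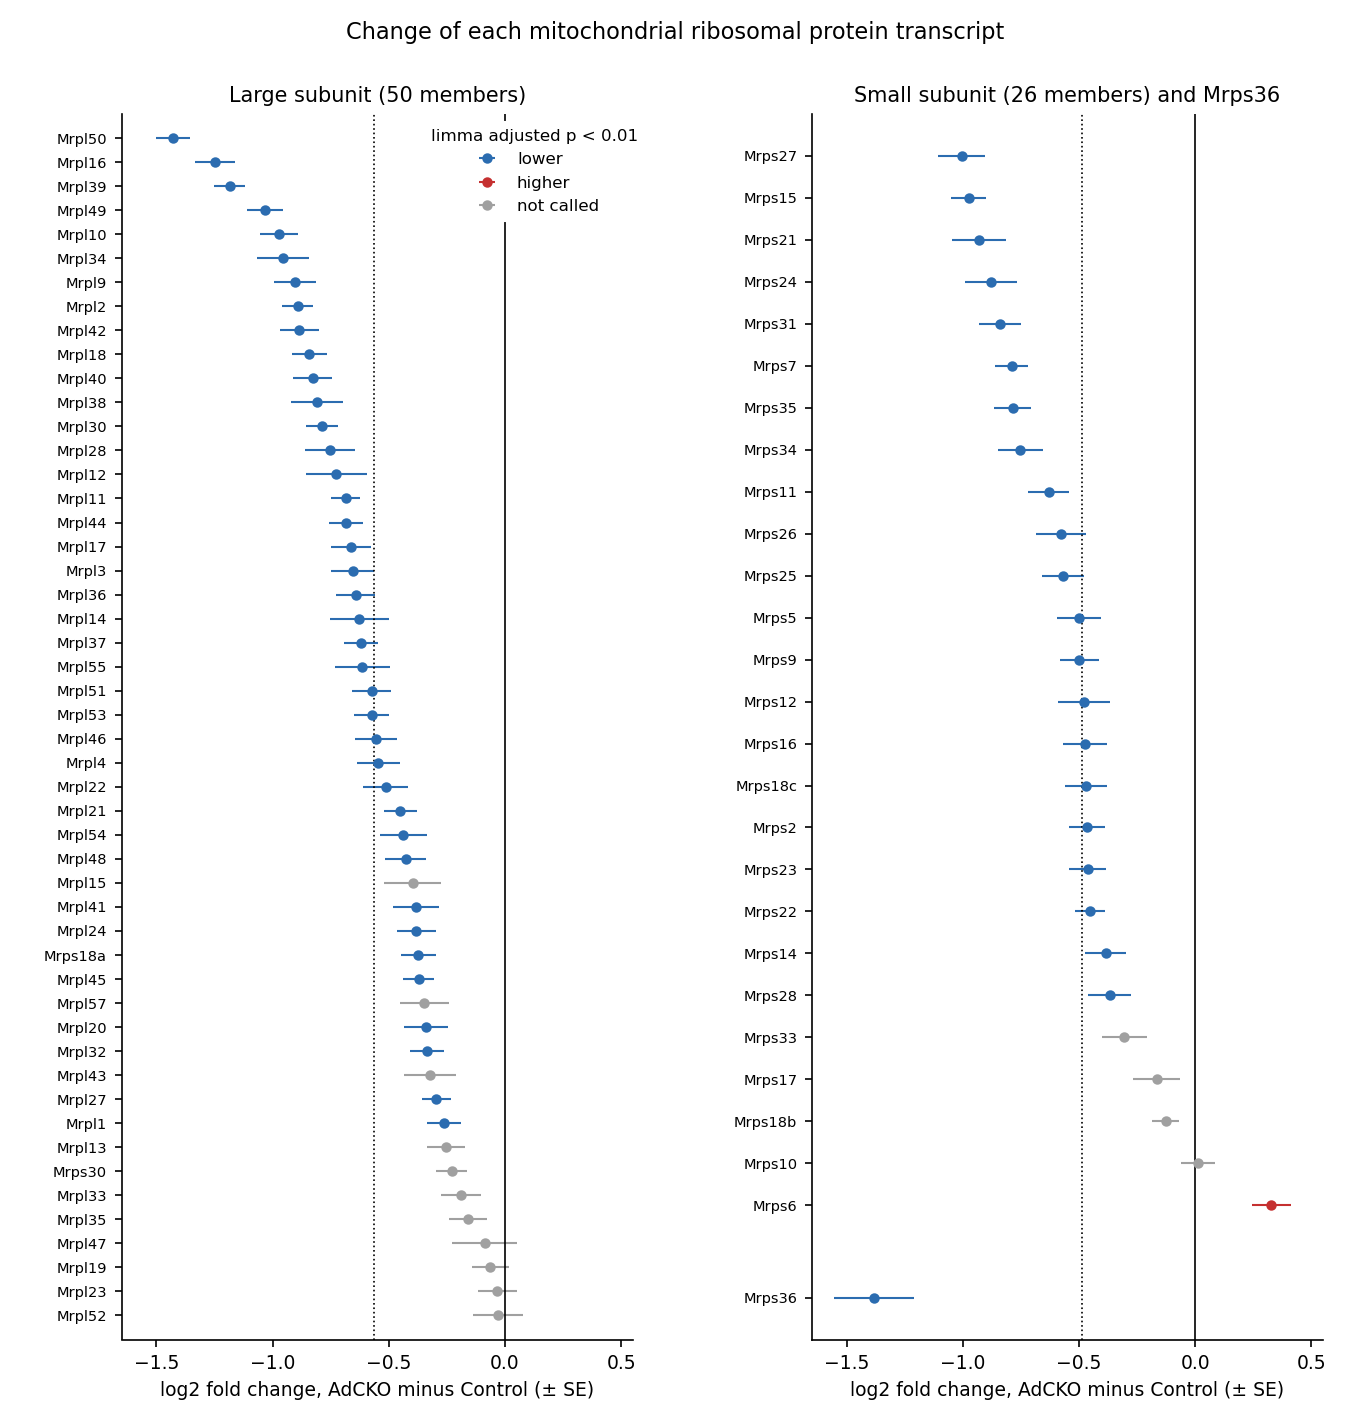
Log2 fold change of AdCKO minus Control for each member (points, with the SE from limma as bars), sorted within the large subunit (left) and the small subunit with Mrps36 below (right). Blue members were called lower, red higher and gray not called, and the dotted lines are the subunit medians of -0.57 and -0.49. With every library scaled to the same total the counts were 22 lower (9.77% of all tested genes) and 8 higher (60.6%).

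Most transcripts of both subunits were lower in AdCKO. Of the 50 large subunit members, 39 were lower and 11 were not called, with a median of -0.57 and a range from -1.43 to -0.03. Of the 26 small subunit members, 21 were lower, 1 was higher and 4 were not called, with a median of -0.49 and a range from -1.01 to 0.33. With the scaling of the authors, 28.0% of all tested genes were lower and 25.6% higher. With every library scaled to the same total, 14 large and 7 small subunit members were lower (9.77% of all tested genes), and 5 and 3 were higher (60.6%). Relative to all genes the subunit medians under that scaling were -0.54 and -0.47, values that a shift shared by all genes leaves about the same by construction. Sorting members by the letter of their symbol instead gave 38 of 48 Mrpl genes lower (median -0.57), and 23 of 29 Mrps genes lower and 1 higher (median -0.48).

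The level of each subunit was also followed library by library, as the geometric mean of value plus 1 over its members. The large subunit stood at 353, 421, 381, 375 and 386 normalized reads per kb in the Control libraries and at 243, 267, 263, 241 and 280 in the AdCKO libraries. The small subunit stood at 365, 429, 384, 398 and 406 in Control and at 261, 281, 281, 255 and 302 in AdCKO. For both subunits every AdCKO library lay below every Control library, and the AdCKO means were 67.5% and 69.7% of Control. The balance of the subunits, the log2 level of the large minus that of the small, was -0.05 ± 0.03 in Control and -0.10 ± 0.01 in AdCKO (SD, n = 5). The Control values ran from -0.08 to -0.01 and the AdCKO values from -0.11 to -0.08, and the groups overlapped in that Control library 4 lay below AdCKO library 2. As a ratio the balance was 0.967 in Control and 0.936 in AdCKO.

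**Figure D2:**
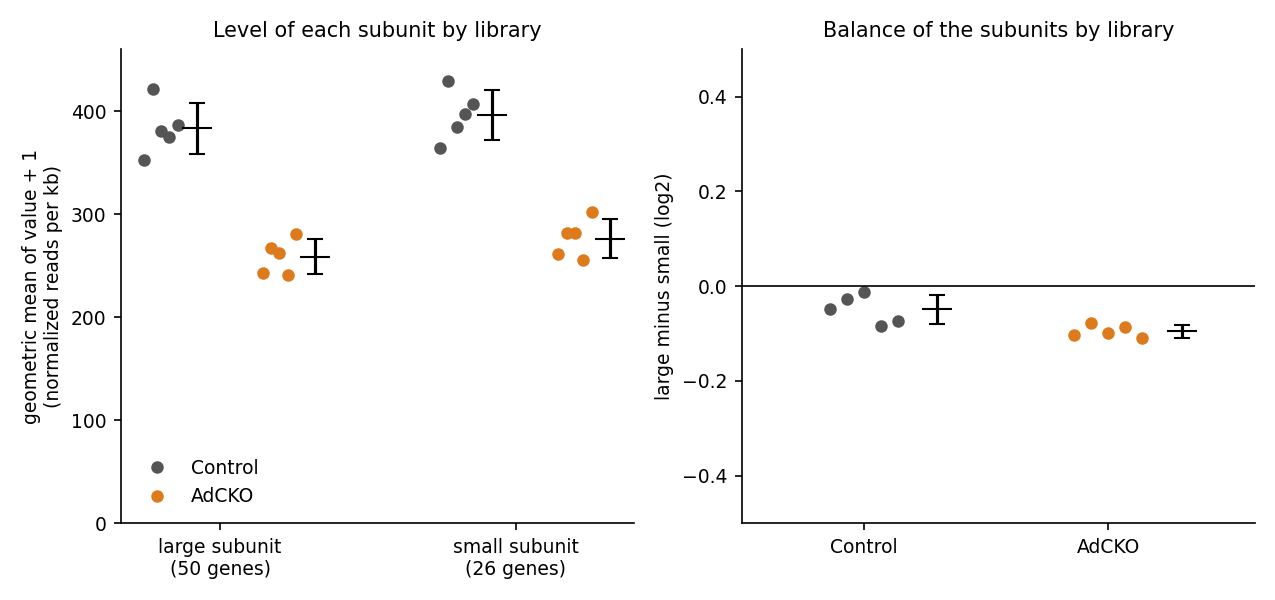
Left, geometric mean level of the 50 large and 26 small subunit members in each library (points) with the group mean and SD, in normalized reads per kb. Right, log2 level of the large minus the small subunit in each library with mean and SD, where all values lay between -0.11 and -0.01. Levels keep the scaling of the authors, under which AdCKO library totals averaged 71.6% of Control.

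Members differed between the libraries of a group, many of them in the same direction. Control library 2 held the highest Control value for 44 of the 77 members, and Control library 1 the lowest for 40. Among AdCKO libraries, number 5 held the highest value for 46 members and number 4 the lowest for 37. The median deviation of the members from their group means ran from -0.10 to 0.12 on the log2 scale over the 10 libraries, against -0.02 to 0.02 for all tested genes. As a share of all normalized reads the members made up 0.484 to 0.559% in Control and 0.433 to 0.499% in AdCKO, so that these ranges overlapped, while the library totals were 7615403 to 8171138 normalized reads in Control and 5419800 to 5843024 in AdCKO.

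AdCKO libraries 3 and 5, which were low in muscle markers, were also set against the 5 Control libraries alone. Then 39 members were lower (19.3% of all tested genes) and 0 were higher (18.7%), all 39 among the 61, with medians of -0.47 for the large and -0.44 for the small subunit. Members called with all 5 AdCKO libraries and not with these included Mrps16, Mrps18a and Mrps18c. With fewer libraries a call is harder to reach, so a lost call need not mean a smaller change. Libraries 3 and 5 differed in more than muscle markers. Their Ucp1 values were 18077 and 18828 normalized reads per kb, against 7895 to 12861 in the other AdCKO libraries. The call of Mrps6 was also lost, at a log2 fold change of 0.40 (limma adjusted p = 0.0144).

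The largest falls of the large subunit were those of Mrpl50, Mrpl16 and Mrpl39. Mrpl50, found in mitochondrial but not bacterial ribosomes, lies on the minus strand of chromosome 4 (mm9, 49525469 to 49533955). Its values were 532, 609, 579, 504 and 533 normalized reads per kb in Control and 183, 204, 208, 206 and 220 in AdCKO. The groups were far apart, and the spread within each was small. The means were 551 ± 42.0 and 204 ± 13.6 (SD, n = 5), and the log2 difference was -1.43 with an SE of 0.07 (adjusted p = 2.09e-08 by limma).

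Mrpl16 is the counterpart of a bacterial protein that lies close to the peptidyl transferase centre, where amino acids are joined. It stood at 541, 638, 605, 475 and 583 in Control and at 222, 234, 227, 242 and 264 normalized reads per kb in AdCKO. No AdCKO value came near the Control range, and the fold change was -1.25 (SE 0.09, limma adjusted p = 1.56e-07). Mrpl39, a mitochondria-specific protein that resembles part of a threonyl-tRNA synthetase, fell from 390 ± 15.6 to 171 ± 14.3 (SD, n = 5). Its Control libraries lay within 367 to 410 and its AdCKO libraries within 158 to 195, a fold change of -1.18 (SE 0.07, limma adjusted p = 4.39e-08).

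Mrpl12, Mrpl34 and Mrpl42 had the highest Control levels of the large subunit. Mrpl12 belongs to the stalk, the flexible arm that recruits translation factors, and stood at 1667, 2670, 1927, 2030 and 1888 in Control and at 1023, 1360, 1134, 1167 and 1444 in AdCKO. Control library 2 was high and the groups did not overlap, with a fold change of -0.73 (SE 0.13, limma adjusted p = 0.000357). Mrpl12 lost its call under the same total (-0.24) and with quantile normalization. Mrpl34 fell from 1881 ± 124 to 978 ± 166 (SD, n = 5), a log2 fold change of -0.96. Mrpl42 changed by -0.88, with Control libraries at 1433 to 1680 and AdCKO libraries at 724 to 950. Mrpl12 held the highest level of all 77 members in both groups, Mrpl34 moved from rank 2 to rank 4, and Mrpl20, with a fold change of -0.34 and named here after its values were seen, moved from rank 6 to rank 2.

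By place in the large subunit, the falls were spread over the particle. These places were assigned with the values known and cover only the members listed here, so their counts are a description. Over all tested genes 28.0% were lower. All 5 members around the peptidyl transferase centre (Mrpl2, Mrpl3, Mrpl4, Mrpl16 and Mrpl27) were lower, from -1.25 to -0.30. All 3 listed stalk members (Mrpl10, Mrpl11 and Mrpl12) were lower, from -0.97 to -0.69. The central protuberance is the knob at the top that contacts the small subunit. Its 6 listed members (Mrpl18, Mrpl38, Mrpl40, Mrpl46, Mrpl48 and Mrpl55) were lower, from -0.84 to -0.43. Around the tunnel exit, where the new chain leaves toward the membrane, Mrpl17, Mrpl22, Mrpl24 and Mrpl45 were lower, while Mrpl23 and Mrpl47 had fold changes of -0.03 and -0.09 and were not called. With every library scaled to the same total the median was 0.10 around the tunnel exit, where no member was then lower and 1 was higher. It stayed negative at the other places, from -0.24 to -0.17. Over all tested genes the median was then 0.46, with 9.77% lower and 60.6% higher. The tunnel exit also lay below all genes, an order that a shift shared by all genes leaves in place.

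The largest falls of the small subunit were those of Mrps27, Mrps15 and Mrps21. Mrps27, a mitochondria-specific protein of the pentatricopeptide repeat family of RNA-binding proteins, stood at 328, 472, 374, 387 and 361 in Control and at 177, 177, 194, 177 and 227 normalized reads per kb in AdCKO. Every AdCKO value was below every Control value, a fold change of -1.01 (SE 0.10, limma adjusted p = 3.61e-06). Mrps15, which binds the small ribosomal RNA in the platform of the subunit, stood at 570, 675, 712, 640 and 610 in Control and at 312, 353, 298, 327 and 338 in AdCKO. These groups were also apart, with a fold change of -0.97 (SE 0.08, limma adjusted p = 3.95e-07).

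Mrps21 had the highest level of the small subunit and stood at 1514, 2046, 1907, 1884 and 1954 in Control and 835, 1064, 903, 882 and 1216 in AdCKO, a fold change of -0.93. Control library 1 was the lowest Control and still lay above all AdCKO libraries. Mrps7, a protein of the head of the subunit, stood at 657, 812, 679, 668 and 730 in Control and at 404, 410, 384, 417 and 429 in AdCKO, a fold change of -0.79 (SE 0.07, limma adjusted p = 1.26e-06). Mrps16 and Mrps23, which follow Mrps21 in Control level, had smaller falls of -0.47 and -0.46, and with every library scaled to the same total their fold changes were 0.01 and 0.02 and they were not called.

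Mrps6 was the single member called higher. Its bacterial counterpart sits on the platform of the small subunit beside the counterpart of Mrps18c. Mrps6 stood at 371, 427, 347, 429 and 445 normalized reads per kb in Control and at 498, 521, 519, 452 and 539 in AdCKO. The groups did not overlap, although AdCKO library 4 lay close to the highest Control library. The means were 404 ± 42.2 and 506 ± 33.3 (SD, n = 5), a fold change of 0.33 (SE 0.08, limma adjusted p = 0.00393), and it was higher under all 3 scalings. The call was lost without Control replicate 1 (limma adjusted p = 0.0108) and without AdCKO replicate 2 (0.0106), with fold changes of 0.30 and 0.32. The other platform members were lower, with Mrps11 at -0.63, Mrps15 at -0.97, Mrps18c at -0.47 and Mrps21 at -0.93. In Control level Mrps6 was rank 42 of 77 members, and in AdCKO it was rank 10.

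Mrps6 lies on the plus strand of chromosome 16 (mm9, 92058581 to 92112472), and the 145 bases of its annotated exon 1 are shared with Slc5a3, which encodes a transporter of myo-inositol and starts in the same exon on the same strand. Exons 2 and 3 of Mrps6 add up to 635 bases, the same as its counted length, so the shared exon was not needed to reach it. Slc5a3 rose, from a Control mean of 17.5 ± 4.01 to an AdCKO mean of 32.1 ± 4.34 (SD, n = 5), by 0.85 on the log2 scale (SE 0.14, limma adjusted p = 0.000199).

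**Figure D3:**
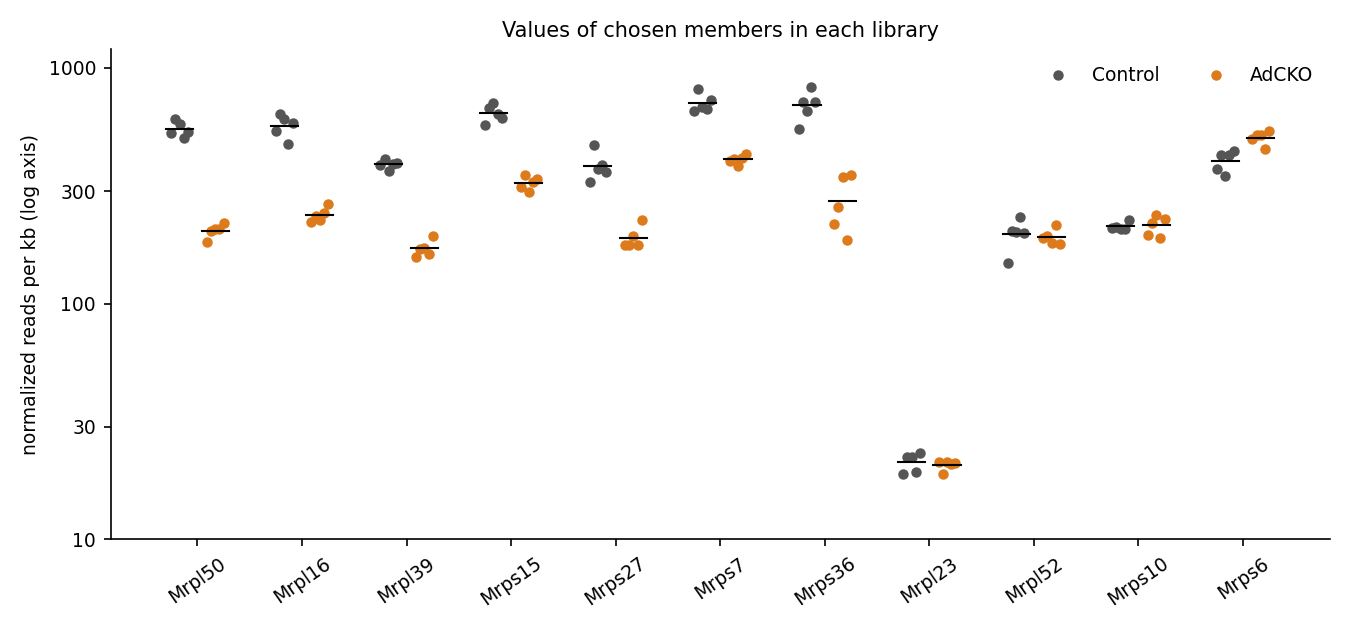
Values of 11 members in each Control (gray) and AdCKO (orange) library, in normalized reads per kb on a log axis, with the group mean as a line. Groups were apart for Mrpl50, Mrpl16, Mrpl39, Mrps15, Mrps27, Mrps7 and Mrps36 (lower) and for Mrps6 (higher), and overlapped for Mrpl23, Mrpl52 and Mrps10.

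The 15 members that were not called were Mrpl13, Mrpl15, Mrpl19, Mrpl23, Mrpl33, Mrpl35, Mrpl43, Mrpl47, Mrpl52, Mrpl57 and Mrps30 of the large subunit and Mrps10, Mrps17, Mrps18b and Mrps33 of the small subunit. Their fold changes ran from -0.40 for Mrpl15 to 0.01 for Mrps10. At a looser adjusted p of 0.05, 67 members were lower (33.8% of all tested genes) and 1 was higher (31.8%). Mrps10, another protein of the head, stood at 210, 211, 208, 208 and 226 in Control and at 196, 221, 239, 191 and 230 in AdCKO, and the AdCKO range enclosed the Control range. Mrpl52 stood at 149, 203, 202, 233 and 200 in Control and at 190, 194, 181, 216 and 178 in AdCKO, and here the Control range enclosed the AdCKO range. Mrpl23 had the lowest level of all members, at 21.3 ± 2.01 in Control and 20.7 ± 1.00 in AdCKO (SD, n = 5). Mrps18b and Mrps30 were not called, although their AdCKO values all lay below their Control values, with fold changes of -0.13 and -0.23.

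Under the same total, the 8 members called higher were Mrpl19, Mrpl23, Mrpl35, Mrpl52, Mrps10, Mrps18b, Mrps30 and Mrps6, against 60.6% of all tested genes higher, and of these only Mrps6 was called with the scaling of the authors. The 22 called lower compared with 9.77% of all tested genes. With quantile normalization 50 were lower, 49 of them among the 61 and the other Mrpl23 (31.2% of all tested genes), and Mrps6 was the 1 member called higher (22.0%).

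**Figure D4:**
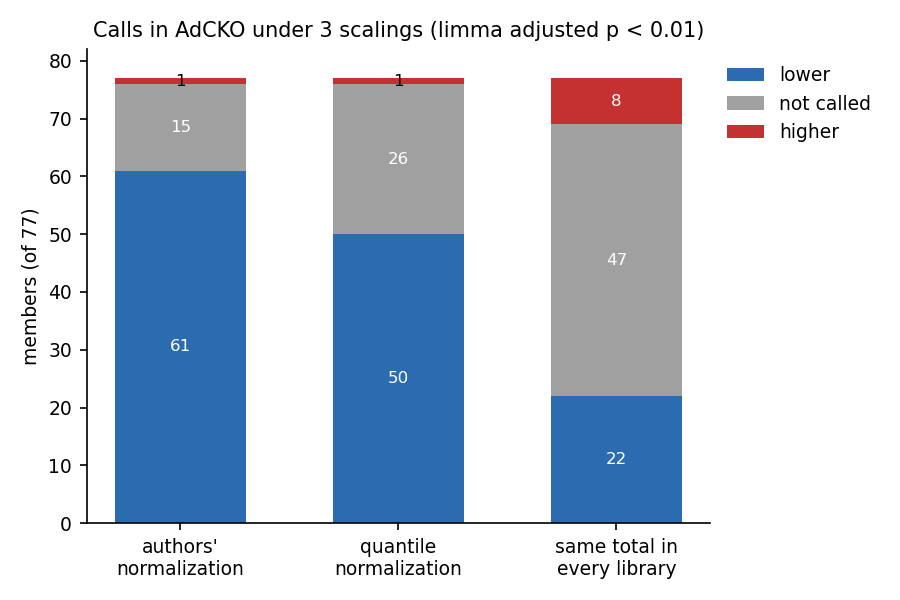
Number of the 77 members called lower, not called and called higher (limma adjusted p below 0.01) with the normalization of the authors, with quantile normalization and with every library scaled to the same total. The counts called lower were 61, 50 and 22, and those called higher were 1, 1 and 8. Of all tested genes, 28.0%, 31.2% and 9.77% were lower, and 25.6%, 22.0% and 60.6% were higher.

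The genes Mrps18a, Mrps18b and Mrps18c encode relatives of a single bacterial protein, and their proteins sit at different places in the mitochondrial ribosome. Mrps18a, of the large subunit, stood at 580, 646, 673, 581 and 517 in Control and at 453, 471, 477, 450 and 454 normalized reads per kb in AdCKO, a fold change of -0.37 (SE 0.07, limma adjusted p = 0.000844). Mrps18c, the closest counterpart of the bacterial protein, fell from 221 ± 28.4 to 158 ± 9.10 (SD, n = 5), a fold change of -0.47. Mrps18b stood at 378, 394, 395, 380 and 417 in Control and at 359, 343, 377, 347 and 372 in AdCKO (fold change -0.13, limma adjusted p = 0.0697), and the difference between these relatives was not tested. Over 30% of the exon bases of Mrps18b are also annotated to a noncoding RNA, so its values are uncertain. With every library scaled to the same total the fold changes of Mrps18a, Mrps18b and Mrps18c were 0.11, 0.35 and 0.01.

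Mrps36, which is no part of the ribosome despite its name, was among the members that fell most. Its values were 553, 715, 654, 829 and 716 in Control and 217, 258, 345, 187 and 350 in AdCKO, with libraries 3 and 5 above the other AdCKO libraries. The fold change was -1.38 (SE 0.17, limma adjusted p = 1.94e-05), below that of every ribosomal member except Mrpl50.

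Members with a bacterial counterpart and mitochondria-specific members were also compared. Of the relatives of a single bacterial protein, Mrps18c was counted as its counterpart and Mrps18a and Mrps18b as mitochondria-specific. Over all tested genes 28.0% were lower and 25.6% higher. Of the 46 with a counterpart, 36 were lower and 1 was higher, with a median of -0.50. Of the 30 mitochondria-specific members, 24 were lower and none was called higher, with a median of -0.57. In the small subunit the medians were -0.48 for 16 members with a counterpart and -0.57 for 10 without, and in the large subunit they were -0.58 for 30 and -0.57 for 20. With every library scaled to the same total the medians were -0.02 with a counterpart and -0.09 without, and that of the small subunit members with a counterpart turned to 0.005. The median of all tested genes was then 0.46.

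Other proteins that work with the mitochondrial ribosome were also mostly lower with the scaling of the authors. For comparison, the share of all tested genes called lower was 28.0%, and the share called higher was 25.6%. Under the same total these shares were 9.77% and 60.6%, and the fold changes of all tested genes centred on a median of 0.46. Of 6 further ribosome proteins with other names, 5 were lower and 1 was not called, with a median of -0.72 (-0.24 under the same total, where 2 were lower). They included Dap3, a GTP-binding protein of the small subunit that was first described in cell death (log2 fold change -0.75), Ptcd3 (-0.75) and Aurkaip1 (-0.70). Of 15 translation factors, 13 were lower and 2 were not called, with a median of -0.64 (-0.16 under the same total, where 5 were lower and 1 was higher). Tufm, the elongation factor that brings aminoacyl-tRNA to the ribosome, fell from 989 to 416 normalized reads per kb (log2 fold change -1.25), Gfm2, which helps recycle ribosomes, changed by -1.06 and Taco1, an activator of cytochrome oxidase translation, by -1.03.

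Assembly factors of the ribosome were mostly lower, with exceptions in the other direction. Of 22 tested, 14 were lower (28.0% of all tested genes), 2 were higher (25.6%) and 6 were not called, with a median of -0.40. With every library scaled to the same total the median was 0.08, against 0.46 for all tested genes. Then 5 were lower (9.77% of all tested genes) and 4 higher (60.6%). Ftsj2, a methyltransferase of the large ribosomal RNA, fell by 1.06 on the log2 scale, and the GTPases Mtg2 and Noa1 fell by 0.92 and 0.68. Mterf4, which brings a methyltransferase to the ribosome, rose to 165 normalized reads per kb in AdCKO against 83.6 in Control, a fold change of 0.97 (SE 0.09, limma adjusted p = 2.07e-06). Ddx28, an RNA helicase of large subunit assembly, rose by 0.26 on the log2 scale.

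The ribosome of the cytosol and complex I of the respiratory chain were set beside the members. Of 77 tested cytosolic ribosomal protein genes, 58 were higher (25.6% of all tested genes), with a median of 0.56. Under the same total 75 were higher (60.6% of all tested genes). Complex I is the largest complex of the respiratory chain, and some of its subunits are made by mitochondrial ribosomes. Its 36 listed subunits were all lower (28.0% of all tested genes), with a median level of 49.9% of Control. Under the same total 24 of them were lower (9.77% of all tested genes). Per library, the mean log2 level of the 77 members minus that of complex I was -2.62 to -2.46 in Control and -2.22 to -1.98 in AdCKO. These ranges did not overlap, so that per kb the gap between the levels was narrower in every AdCKO library.

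**Figure D5:**
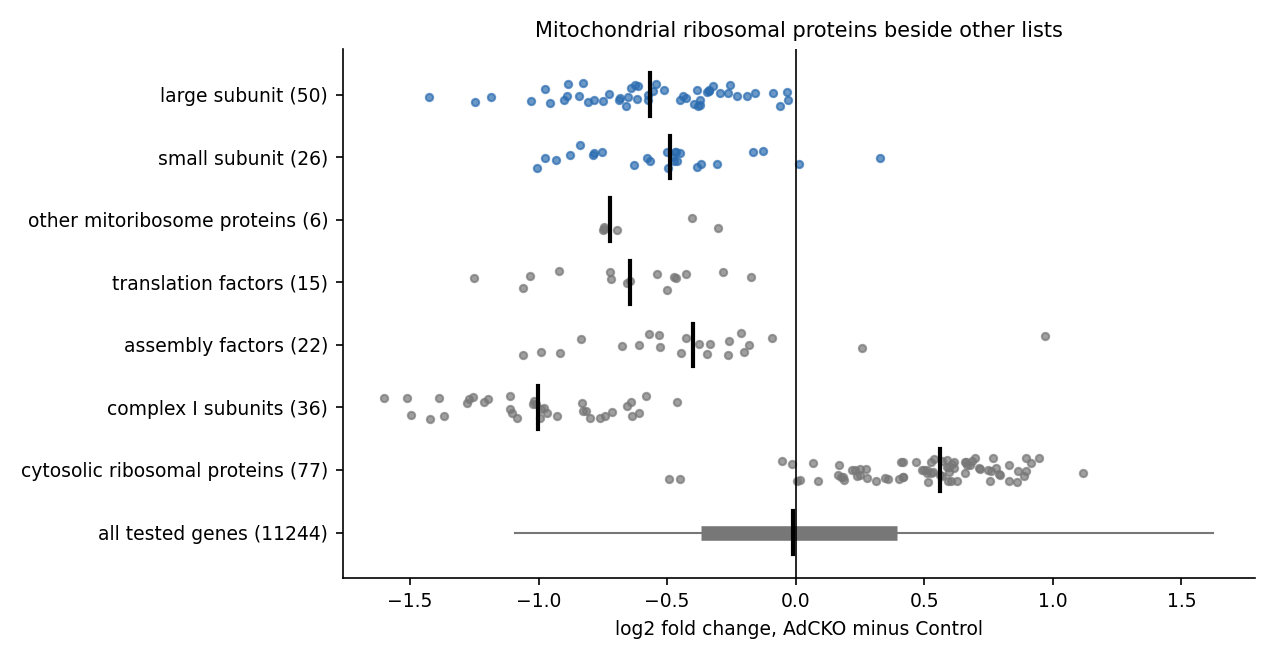
Log2 fold change of AdCKO minus Control for each gene of the large and small subunit (blue) and of other lists (gray), with the list median as a black line and the number of genes in parentheses. For all tested genes the thick bar spans the middle 50% and the thin line runs from the 5th to the 95th percentile. The list medians included -0.57 for the large and -0.49 for the small subunit, -0.40 for the assembly factors and 0.56 for the cytosolic ribosome. With every library scaled to the same total the median of the assembly factors was 0.08, against 0.46 for all tested genes.

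The motifs printed with the start regions were more frequent among members than among all genes with a RefSeq start region. The ETS motif occurred in 12 of 68 members (17.6%) against 7.81% of the 11316 genes, the NRF1 motif in 7 (10.3%) against 3.68% and the YY1 motif in 8 (11.8%) against 3.03%. At least 1 of the 3 was found in 26 members (38.2%) against 13.7% of all genes. Other lists also lay above all genes, with at least 1 motif in 16 of 57 cytosolic ribosomal protein genes (28.1%) and 8 of 32 complex I subunits, and with the ETS motif in 19.3% of the former and the YY1 motif in 15.6% of the latter. Among members this share of at least 1 motif was 38.2% for the 55 members called lower and 38.5% for the 13 others. It was 43.2% for the large and 30.4% for the small subunit. The element of C/EBP and ATF factors (TGATGCAA) was in 0 of 68 members and in 0.733% of all genes, and the E-box CACGTG, which can overlap other motifs, was in 7.35% of members and 11.1% of all genes. All are given as a description of the letters in these windows, without a test.

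Members also often began close to another gene on the opposite strand. Such a head-to-head partner, with its start at most 1000 bases upstream or 100 bases downstream of the start of the member, was found for 24 of the 77 members (31.2%) and for 1538 of the 15075 genes (10.2%). Of the 20 partners that passed the filter, 9 were lower (28.0% of all tested genes), 2 were higher (25.6%) and 9 were not called, with a median of -0.27. These counts hold Mrpl46 and Mrps11 once each, which are members themselves and were both lower. Mrpl46 and Mrps11, of opposite subunits, changed by -0.56 and -0.63, and their annotated exons share 173 bases. Mrpl50 and its partner Zfp189, a zinc finger gene 93 bases away, changed by -1.43 and -1.14.

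Other pairs parted. Mrpl49 changed by -1.03 while Fau, a cytosolic ribosomal protein gene that starts 137 bases away, rose by 0.53 on the log2 scale. Mrps7 changed by -0.79 and its partner Gga3 by 0.34. Mrpl47 was not called at -0.09, and its partner Ndufb5, a complex I subunit, fell by 1.26 on the log2 scale from 2131 to 894 normalized reads per kb. The difference within a pair was not tested.

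Because counting by strand is not stated for these data, reads of overlapping genes may have been shared. Of 76 members with an annotated mm9 transcript, 26 shared exon bases with another gene in at least 1 transcript, Mrpl46, Mrps11 and Mrps6 included. In the transcript nearest in length to the counted exons 17 did, and 4 shared over 30% of its bases. These were Mrpl53 with Ccdc142 (100%), Mrps18b with a long noncoding RNA (59.1%), Mrps34 with Mapk8ip3 (48.9%) and Mrpl19 with another coding gene (39.2%), and their values are uncertain for that reason. Ccdc142 lies on the same strand as Mrpl53, and the other 3 partners lie on the opposite strand.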

How the data were processed

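Messenger RNA of iBAT was sequenced in 5 Control and 5 AdCKO mice. The authors used STAR to place reads on mm9 and HOMER with iRNA-seq to count exon reads per gene, and normalized them with DESeq2, with versions not given in the sources used here. The deposited values are a signal, normalized exon reads per kilobase of counted exon, which allows levels of different genes to be compared. Whether the values were transformed further and whether counting used strand is not stated, and read depth is unknown. Deposited fold changes, adjusted p values and lists of changed genes are the study's own comparisons and were not used.

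The members and gene lists were chosen with earlier results of these data known. Groups came from the labels, with 1 library per animal. Values plus 1 were put on the log2 scale, genes with a mean of at least 10 in either group were kept (11244 of 15075) and limma 3.58.1 with an intensity trend (R 4.3.3) was run on all 10 libraries, with Benjamini-Hochberg adjustment over all tested genes and a threshold of 0.01. Design followed the labels without a replicate block. Sums and motif counts used Python 3.11.15, pandas 2.3.3, numpy 2.4.6 and scipy 1.17.1, and figures matplotlib 3.10.9. The smallest p that an exact permutation test of 5 against 5 allows is 0.00794.

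Text names by rule, from each subunit, the 3 called members with the smallest p, the largest change and the highest Control level, each member called higher or not called, Mrps18a, Mrps18b, Mrps18c and Mrps36, and of other lists up to 3 genes by smallest p together with those called against the direction of the list. Genes called against the direction of the cytosolic ribosomal list are not reported here. Members named for their place in the ribosome, their neighbour or their sequence were chosen after their values were seen. Start regions are from RefSeq (GRCm38.p6), coordinates and exons from the deposited table and GENCODE (mm9). On simulated data with known changes the fit recovered 88 of 100 genes changed by 1 log2 unit and 99 of 100 changed by 2, with 5 false calls among 11244 genes. Changes below 1 log2 unit, the size of most falls of the members, were not simulated. Nor were data in which as many genes change as here. Alternatives were another pseudocount, filter, scaling, limma setting, threshold or subunit assignment, a replicate block and leaving out each library. The comparison of AdCKO libraries 3 and 5 alone with Control was chosen after seeing the data.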

Additional observations from a re-analysis of the deposited data

Results flagged for a closer look

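In Control and AdCKO, the 31 named members, Crls1, the levels of the large and small subunit and their ratio made 70 groups of 5 libraries, of which 4 held a library far from the other 4, where the gap to its neighbour exceeded 0.71 of the range of the group. Chance gives about 1 in 20 groups. Mrpl23 stood at 19.0 normalized reads per kb in AdCKO replicate 2 against 20.9 to 21.4 in the other AdCKO libraries. Mrps10 stood at 226 in Control replicate 5 against 208 to 211 in the other Control libraries. Mrps16 stood at 445 in AdCKO replicate 4 against 573 to 606 in the others. Mrps17, a small subunit member that was not called, stood at 347 in AdCKO replicate 3 against 231 to 257 in the others, and without that library it was called lower (log2 fold change -0.27, limma adjusted p = 0.00174).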

How the results depend on the processing

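The count of members called lower stayed within 57 to 64 when each library was left out in turn, and that of the large and small subunit within 36 to 42 and 20 to 22. Their medians stayed within -0.60 to -0.52 and -0.54 to -0.46, and Crls1 within -2.36 to -2.19. The count called higher ran from 0 to 1, and was 0 without Control replicate 1 and without AdCKO replicate 2. Without single libraries, fold changes crossed 0 in Mrpl23 (-0.071 to 0.00013), Mrpl52 (-0.13 to 0.033) and Mrps10 (-0.026 to 0.055), none of them called. With AdCKO libraries 3 and 5 alone, 39 members were lower and 0 higher, 25 of the large and 13 of the small subunit, and Mrpl47 was at 0.21.

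With every library scaled to the same total, 22 members were lower and 8 higher, 14 and 7 of the large and small subunit were lower, and the subunit medians were -0.085 and -0.0082. The sign then turned in 18 of 31 named members, to Mrpl13 0.23, Mrpl15 0.082, Mrpl19 0.41, Mrpl23 0.43, Mrpl33 0.29, Mrpl35 0.32, Mrpl43 0.16, Mrpl47 0.39, Mrpl52 0.45, Mrpl57 0.13, Mrps16 0.0076, Mrps17 0.31, Mrps18a 0.11, Mrps18b 0.35, Mrps18c 0.0095, Mrps23 0.017, Mrps30 0.25 and Mrps33 0.17. With quantile normalization the large subunit median was -0.39, and Mrpl52 and Mrps18b were at 0.061 and 0.044. Scaling to the same total multiplied all values of a library by 1 factor, and AdCKO totals averaged 71.6% of Control. It moved the median fold change of all tested genes up by 0.47, and the signs turned along with that shift. Which scaling lies nearer to the levels in the tissue was not tested. Relative to all genes, the subunit medians under the same total were -0.54 and -0.47, and a factor shared by all genes of a library leaves such values nearly unchanged. Why the totals differed was not tested. Outside the same total, 584 of 620 results for single named members kept their direction and side of the threshold.

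The replicate numbers of the labels were tried as a block. Libraries with the same number correlated by -0.27 to 0.10, and 0 of 5 Control and 1 of 5 AdCKO libraries correlated best with their own number, so that only the numbers were shared. With the replicate block 61 members were lower, 60 of them the same genes, and 0 were higher, with Mrps6 at an adjusted p of 0.0101 by limma. Depth is unknown, 5 animals per group limit the precision, and the scaling of the libraries sets how many members are lower.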
